A study of Drosophila melanogaster with 6 samples.

Results

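The sorting nexin genes (Snx) and the numbered Vps genes encode machinery that sorts membrane proteins on endosomes. They were taken from the array by name: every spot whose single current Drosophila symbol began with Snx or Vps followed by a number. This gave 10 genes, namely the 5 sorting nexin genes Snx1, Snx6, Snx17, Snx21 and Snx27 and the 5 Vps genes Vps2, Vps4, Vps11, Vps29 and Vps51. They stood on 11 clones, since Vps2 had 2 and each other gene 1, and all 10 had values on all 6 arrays. They were 10 of 7201 features with complete values, of which 2216 were named genes. The RefSeq table holds 34 symbols of this form, and the other 24 were not measured under a gene name here.

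Endosomes receive proteins taken up at the cell surface or delivered from the Golgi, and machinery on their membrane sends each cargo to the lysosome, the Golgi or back to the surface. Sorting nexins carry a PX domain that binds phosphoinositides of endosomal membranes, and several of them work with retromer, a complex that recovers cargo from endosomes. Vps genes take their name from yeast mutants with faulty vacuolar protein sorting and encode subunits of retromer, of the ESCRT complexes that pack cargo into multivesicular bodies, and of tethers that join vesicles to endosomes, lysosomes and the Golgi. Blood cells and lines derived from them are known for active uptake and digestion of particles, which runs through these compartments.

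RNA was compared between Kc167 and SL2, which are 2 untreated established lines of Drosophila melanogaster cells; both were made from embryos and resemble blood cells. Both were kept at 22 °C as dense cultures with gentamicin at 20 µg/mL, Kc167 in a Schneider medium with 5% foetal bovine serum and SL2 in CCM3 medium, so the line and its medium cannot be told apart. Labelled cDNA of both lines competed for the spots of each of 6 cDNA arrays, with Kc167 in Cy5 and SL2 in Cy3 on 3 arrays, called unflipped here, and the dyes exchanged on the 3 flipped arrays. Each unflipped array was averaged with the flipped array of its number, which gave n = 3 replicates. Separate cultures are not mentioned in the labels, so the spread among these replicates may be technical. The p-values rest on that spread, pooled by limma with the spread of other features (residual degrees of freedom 2, prior 7.57). No other source of variation enters them.

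Values are log2 ratios of SL2 over Kc167. The labels state neither this direction nor the base of 2, and both are only likely; if the ratio ran the other way, every sign given here would change. A positive value is written as higher in SL2 and a negative value as higher in Kc167. A ratio of bulk RNA cannot tell fewer cells with a transcript from less transcript per cell. No intensities were used here, so the level of a gene in either line and its signal over background are unknown. Between 15104 and 16844 of 16896 spots had a value per array.

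Of the 10 genes 7 differed between the lines, in both directions. By limma with an adjusted p under 0.05 over all features, Snx1, Snx21, Vps11 and Vps51 (4 genes) were higher in SL2, Vps29, Vps4 and Snx17 (3 genes) were higher in Kc167 and 3 did not pass (Snx6, Vps2 and Snx27). Among all features, 60.2% were called, 28.4% as higher in SL2 and 31.8% as higher in Kc167, so a count of 7 of 10 is near the background and is not a result about these genes. None of the 10 was at least 2-fold apart, against 6.53% of all features. Read as natural logarithms, the ratios of Snx1 and Snx21 stand for 2.54-fold and 2.25-fold, and 2 genes were then at least 2-fold apart. The 6.53% does not apply to that reading, under which more features pass. Their share was not computed, so the count of 2 is not a result about these genes. The median ratio of the 10 genes was 0.14, against -0.02 for all features and 0.02 for named genes. Sorting nexins and Vps genes had medians of 0.14 and 0.13, and each family held genes of both directions.

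**Figure D1:**
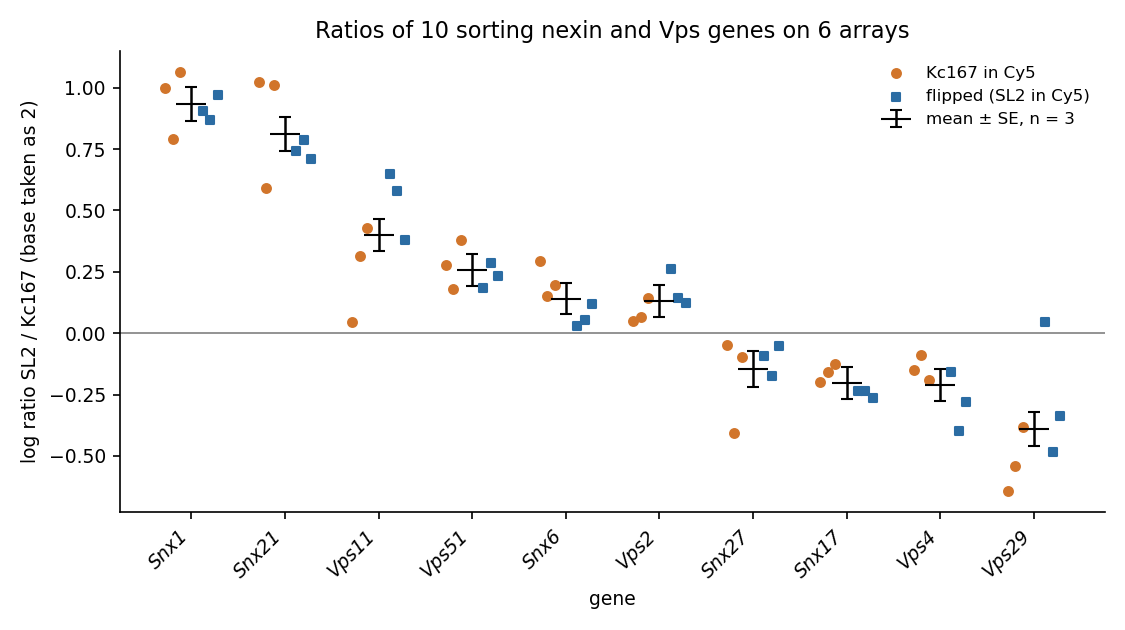
Each point is the log ratio of SL2 over Kc167 of 1 gene on 1 array, in circles for the 3 unflipped arrays and squares for the 3 flipped arrays; bars are the mean ± SE of limma over n = 3 replicates. Snx1 and Snx21 have the highest means, and Vps29 is lowest by its mean although 1 flipped array lies above 0.

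Among the 10 genes, the ratio of Snx1 was the largest. Snx1 encodes a sorting nexin with a BAR domain, which in mammals and yeast forms the tubule coat that works beside retromer. On the unflipped arrays its log2 ratio was 1.0, 0.79 and 1.07, and on the flipped arrays 0.91, 0.87 and 0.97. All 6 arrays thus lay above 0 within a narrow band. The mean was 0.93 ± 0.07 (SE, n = 3), a 1.91-fold difference, with a limma adjusted p of 2.3e-06. In size this ratio exceeded that of 92.5% of all features. The call held in all 21 alternative settings, with values from 0.83 to 0.99.

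Snx6 encodes the other BAR-domain sorting nexin measured here, a partner of Snx1-type proteins in mammals. Its arrays gave log2 ratios of 0.29, 0.15 and 0.20 on the unflipped arrays and 0.03, 0.06 and 0.12 on the flipped arrays. All were above 0, but none reached the lowest array of Snx1. The mean of 0.14 ± 0.06 did not pass by limma (adjusted p = 0.084), and its 95% interval ran from -0.0036 to 0.29. After each clone's value was corrected by the median of its 24 neighbours in spot order, Snx6 had 0.22 and passed (limma adjusted p = 0.016). The log2 ratio of Snx1 exceeded that of Snx6 by 0.79, 0.72 and 0.86 in the 3 replicates (0.79 ± 0.07, SD, n = 3). An exact two-sided sign-flip test of 3 values cannot go below 0.25, which is the p found here.

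Vps29, a core subunit of retromer, was higher in Kc167, opposite to Snx1. Its log2 ratio was -0.64, -0.54 and -0.38 on the unflipped arrays and 0.04, -0.48 and -0.34 on the flipped arrays. One array, flipped array 1, lay just above 0, and the other 5 lay below 0. The mean was -0.39 ± 0.07 (SE, n = 3; 1.31-fold; limma adjusted p = 0.00089), and without flipped array 1 it was -0.51 (limma adjusted p = 0.0015). The call was lost without unflipped array 1 (-0.28; limma adjusted p = 0.13), on the flipped arrays alone (-0.26; limma adjusted p = 0.093) and without pooling of variance between features (adjusted p = 0.067). The log2 ratio of Snx1 exceeded that of Vps29 by 1.32 ± 0.06 (SD, n = 3), and that of Snx6 exceeded it by 0.53 ± 0.08.

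Snx27 is known in mammals as an adaptor with a PDZ domain that hands cargo to retromer for return to the cell surface. Its log2 ratios were -0.05, -0.41 and -0.10 on the unflipped arrays and -0.09, -0.18 and -0.05 on the flipped arrays, so every array was below 0 and 1 array stood apart. On that array, unflipped array 2, its 2 spots read -0.11 and -0.71. The mean of -0.15 ± 0.07 did not pass (limma adjusted p = 0.11; 95% interval from -0.31 to 0.02), nor did it without that array (-0.11; limma adjusted p = 0.25).

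Of the remaining sorting nexins, Snx21 was the second gene with a large ratio. Its mammalian relatives carry a PX-B domain. It had log2 ratios of 1.02, 0.59 and 1.01 on the unflipped arrays and 0.74, 0.79 and 0.71 on the flipped arrays. All arrays were above 0, and the spread was wider on the unflipped arrays. The mean was 0.81 ± 0.07 (SE, n = 3; 1.75-fold; limma adjusted p = 6.2e-06), larger in size than 89.7% of all features. The call held in all 21 alternative settings, with values from 0.75 to 0.88. Snx21 lay below Snx1 by a log2 difference of -0.12 ± 0.05 (SD, n = 3), and the arrays of the genes overlapped.

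Snx17, known in mammals as a FERM-domain adaptor that returns integrins and lipoprotein receptors to the surface, had a small ratio with little spread. Its log2 ratios were -0.20, -0.16 and -0.13 on the unflipped arrays and -0.23, -0.23 and -0.26 on the flipped arrays, all below 0. The SD of the 3 replicates was 0.01, against a median of 0.11 over all features. The mean of -0.20 ± 0.06 (SE, n = 3; 1.15-fold) passed by limma with an adjusted p of 0.020, but 42.0% of all features had a size as small or smaller. The call was lost without replicate 1 (-0.20; limma adjusted p = 0.056), replicate 2 (-0.21; 0.071) or replicate 3 (-0.21; 0.085). It was also lost on the unflipped arrays alone (0.16), and without unflipped array 1 (0.093), flipped array 2 (0.087) or flipped array 3 (0.10). Without pooling of variance Snx17 passed (adjusted p = 0.026).

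**Figure D2:**
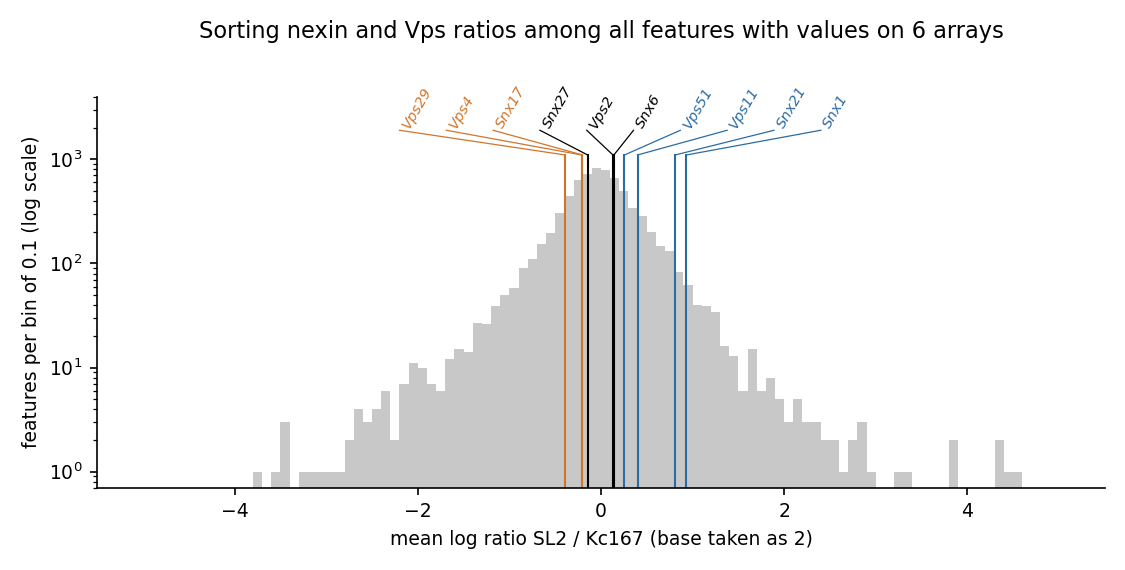
Grey bars count all 7201 features by mean log ratio in bins of 0.1, on a log axis; lines mark the 10 genes, blue for genes called higher in SL2, orange for genes called higher in Kc167 and black for genes that did not pass. Snx1 at 0.93 and Snx21 at 0.81 lie in the upper tail, with lower ratios for 96.5% and 95.2% of the features, and the other 8 lie nearer to 0.

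By gene mean the ESCRT genes had small ratios, but the Vps2 clone at spots 3581 and 3582 had 0.38. Vps4 encodes the ATPase that takes ESCRT-III filaments apart, and Vps2 encodes an ESCRT-III subunit. Vps4 had log2 ratios of -0.15, -0.09 and -0.19 on the unflipped arrays and -0.16, -0.40 and -0.28 on the flipped arrays, all below 0. The mean was -0.21 ± 0.07 (SE, n = 3; 1.16-fold; limma adjusted p = 0.018). The call was lost without replicate 2 (limma adjusted p = 0.088) or 3 (0.097), without unflipped array 1 (0.093), flipped array 2 (0.15) or flipped array 3 (0.078), on the unflipped arrays alone (0.20) and without pooling of variance (0.057).

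For Vps2 the 2 clones disagreed. The clone at spots 3581 and 3582 had log2 ratios of 0.18, 0.25 and 0.24 on the unflipped arrays and 0.74, 0.42 and 0.44 on the flipped arrays. The clone at spots 6995 and 6996 had -0.09, -0.12 and 0.04 on the unflipped arrays and -0.21, -0.13 and -0.19 on the flipped arrays. The first was above the second on every array, and their values did not overlap. Tested among single clones, the first had 0.38 ± 0.07 (limma adjusted p = 0.00080) and the second -0.12 ± 0.07 (limma adjusted p = 0.16). They differed by 0.49 ± 0.10 (SD, n = 3), more than the gene mean of 0.13 ± 0.06, which did not pass (limma adjusted p = 0.10; 95% interval from -0.01 to 0.27). The gene mean therefore describes neither clone, and which of them reports the Vps2 transcript was not tested. Without pooling of variance the gene mean passed (adjusted p = 0.048).

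**Figure D3:**
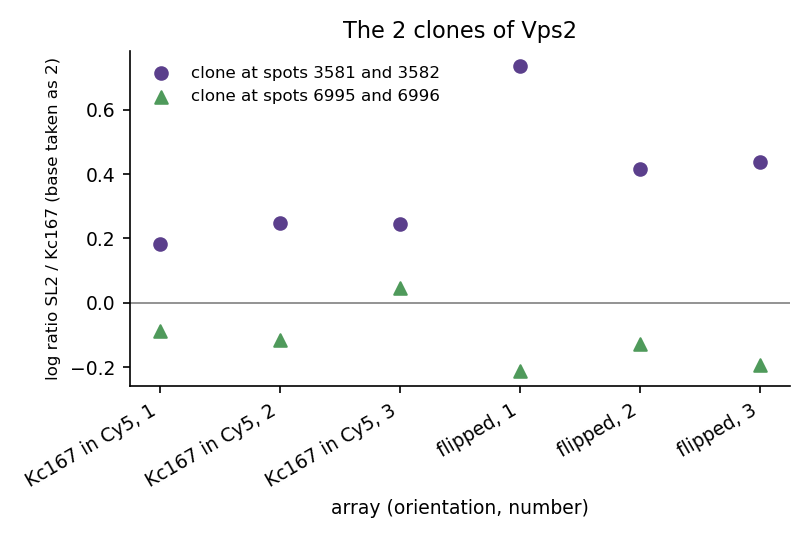
Points are the log ratio of SL2 over Kc167 of the 2 clones of Vps2 on each of the 6 arrays, each the mean of 2 spots. The clone at spots 3581 and 3582 is above 0 on every array, and the clone at spots 6995 and 6996 is below 0 on 5 of 6.

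Both tether genes were higher in SL2. Vps11 is known in yeast and mammals as a core subunit shared by CORVET and HOPS, the tethers of early and late endosomes. Its log2 ratio was 0.04, 0.32 and 0.43 on the unflipped arrays and 0.65, 0.58 and 0.38 on the flipped arrays, positive throughout but with a wide range. The mean was 0.40 ± 0.07 (SE, n = 3; 1.32-fold; limma adjusted p = 0.00049). On the unflipped arrays alone it was 0.26 and did not pass (limma adjusted p = 0.062). Vps51 encodes a subunit shared by GARP and EARP, tethers of the Golgi and of recycling endosomes. It had 0.28, 0.18 and 0.38 on the unflipped arrays and 0.18, 0.28 and 0.23 on the flipped arrays, all above 0. The mean was 0.26 ± 0.06 (SE, n = 3; 1.19-fold; limma adjusted p = 0.0066), and the call was lost without replicate 3 (limma adjusted p = 0.053) and without unflipped array 1 (0.067).

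Ordered by mean log2 ratio, the genes ran Snx1, Snx21, Vps11, Vps51, Snx6, Vps2, Snx27, Snx17, Vps4 and Vps29. The ranges over arrays of neighbours in this order overlapped except between Vps2 and Snx27, where the sign changed, and barely between Snx21 and Vps11 (lowest array 0.59 against highest array 0.65). Of the 10 genes, 9 had 1 sign on all 6 arrays, and 47.2% of all features did. The duplicate spots of the 11 clones differed by 0.13 on average, against 0.20 over all clones, and 2 of their 132 spot values were missing, 1 each for Snx17 and Snx27 on flipped array 2. The value of the other spot was used there.

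The ratio of none of the 10 genes differed between the dye orientations by limma's adjusted p, and none had an unadjusted p under 0.05, with or without pairing of the arrays by number. Among all features, 12.2% were called in this comparison without pairing and 9.46% with it, and 30.7% and 29.3% had an unadjusted p under 0.05. The widest gaps were those of Vps11, higher by 0.27 ± 0.14 on the flipped arrays (limma adjusted p = 0.21), and Vps29, higher there by 0.26 ± 0.15 (limma adjusted p = 0.27). For Snx1 the gap was -0.04 ± 0.12.

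**Figure D4:**
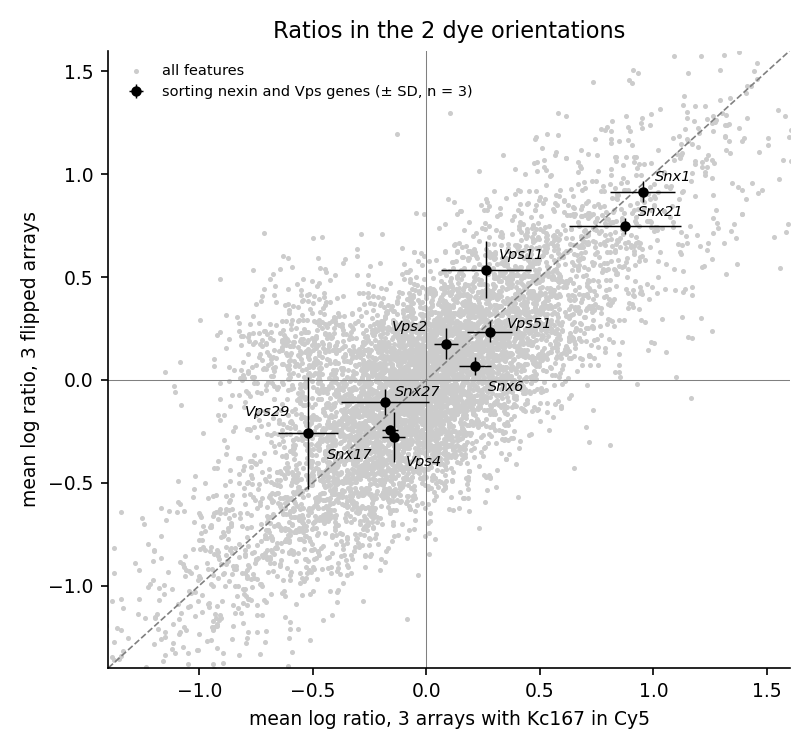
Black points are the mean log ratios of the 10 genes on the 3 unflipped arrays (horizontal) and the 3 flipped arrays (vertical), with bars of ± SD; grey points are all features, those beyond the axes not shown, and the dashed line marks equal values. Every gene has the same sign in both orientations, and Vps11 and Vps29 lie furthest from the line.

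Of the 10 genes 5 lie on 1 chromosome arm: Snx1, Snx6, Snx17, Snx21 and Vps29 are genes of arm 2L, by the RefSeq table. Of these, 2 were higher in SL2 and 2 in Kc167. Among the 440 named genes of 2L that were measured, 35% were higher in SL2 and 20.9% in Kc167, with a median log2 ratio of 0.07. The X-linked genes Snx27 and Vps4 both had negative ratios, and only Vps4 passed. Among 369 named genes of X, 26.3% were higher in SL2 and 37.7% in Kc167, with a median of -0.05.

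Over the 6 arrays, the named genes nearest to Snx1 were Sik3, a kinase gene, with a root mean square difference of 0.07 on the log2 scale and a mean of 0.96, and pelo, with 0.10 and a mean of 0.93. The nearest to Vps29 were PGAP2 (0.07; mean -0.41) and Arp8 (0.13; mean -0.36). In each case 2215 named genes were compared, so the nearest are close by selection. The 6 arrays repeat 1 comparison, so nearness here means a similar ratio, and shared regulation was not tested.

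Other genes of endosomes and lysosomes were divided as well. The 11 lists held 162 genes besides the 10, among them Rel, a transcription factor gene that is not endosomal and was not measured under a name. Of the 162, 25 were measured under a name: 8 were higher in SL2, 5 were higher in Kc167 and 12 did not pass. Their median log2 ratio was 0.02. Of all named genes, 59.3% were called, 30.5% as higher in SL2 and 28.7% as higher in Kc167. The counts among the 25 genes are near these shares and are not a result about endosomal genes. The 8 became 5 on the unflipped arrays alone, without unflipped array 1 and without flipped array 2. In these settings the 4332 calls over all features became 3719, 2899 and 3388. Without pooling of variance over features, 1 remained higher in SL2 (Vha36-2) and 3 in Kc167 (wls, spin and Ykt6). The largest ratio belonged to wls, which encodes the carrier of Wnt proteins that retromer recovers from endosomes. It ran from -2.09 to -1.53 over the arrays and had a mean of -1.80 ± 0.08 (SE, n = 3; 3.47-fold; limma adjusted p = 5.7e-08). It was the only retromer partner measured besides the 4 genes above, and had the sign of Vps29 and the opposite sign to Snx1.

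No other measured gene of the lists that hold Vps2, Vps4, Vps11 and Vps51 passed by limma, and 0 had an unadjusted p under 0.05. In the ESCRT list, mop, which encodes a phosphatase-like protein related to HD-PTP, had 0.15 ± 0.07, and the deubiquitinase gene Usp8 had -0.22 ± 0.12 with arrays from -0.94 to 0.78. In the HOPS and CORVET list, lt, the Vps41 gene, had 0.01 ± 0.07, the Rab5 effector gene Rbsn-5 had -0.04 ± 0.07 and Rilpl had -0.0029 ± 0.08. In the GARP and EARP list, scat, the Vps54 gene, had 0.10 ± 0.07 (limma adjusted p = 0.27). The class III kinase gene Pi3K59F, the source of the lipid that PX domains bind, had -0.09 ± 0.07 (limma adjusted p = 0.27). Without flipped array 1, mop had 0.20 (limma adjusted p = 0.035) and scat 0.24 (0.046). Without replicate 1 mop had 0.22 (0.040), and Usp8 had -0.44 without replicate 2 (3.7e-05) and -0.41 without unflipped array 2 (0.00055). The ratio of Usp8 was -0.53 on the flipped arrays alone (limma adjusted p = 0.011) and 0.083 on the unflipped arrays alone. No gene of the VPS13 list was measured under a name.

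Among genes that act before and after these steps, Vha100-1, which encodes a subunit of the proton pump of endosomes and lysosomes, had 0.82 ± 0.08 and Vha36-2 had 0.40 ± 0.06, while 2 of 4 pump genes did not pass. Of 5 clathrin and adaptor genes, AP-1sigma (0.34 ± 0.07) and lap (0.24 ± 0.07) were higher in SL2, Eps-15 (-0.27 ± 0.07) was higher in Kc167 and 2 did not pass. Of 3 lysosomal genes, spin, which encodes a lysosomal membrane transporter, had -0.67 ± 0.07 and the protease gene cathD had -0.39 ± 0.07. Lamp1, which encodes a lysosomal membrane protein, had 0.19 ± 0.07 with arrays on both sides of 0. Of 4 genes of membrane fusion and recycling, Rip11 (0.57 ± 0.07) and Snap29 (0.26 ± 0.07) were higher in SL2, Ykt6 (-0.48 ± 0.06) was higher in Kc167 and 1 did not pass. Rab35, which encodes the only endosomal Rab GTPase of its list measured, had 0.26 ± 0.07. The ratio of spin also differed between the dye orientations (limma adjusted p = 0.027). With 1 replicate or array left out, 5 of these calls were lost: Lamp1 without replicate 1 or 3, unflipped array 1 or any flipped array (limma adjusted p up to 0.29), lap without replicate 3, unflipped array 1 or flipped array 2 (up to 0.11), Eps-15 without unflipped array 1 or flipped arrays 2 or 3 (up to 0.10), Snap29 without any 1 of the flipped arrays (up to 0.081) and Rab35 without unflipped array 1 (0.054). On the unflipped arrays alone, AP-1sigma had 0.16 (limma adjusted p = 0.16), Eps-15 -0.10 (0.38), Lamp1 0.07 (0.60) and Snap29 0.10 (0.35), and none of these passed. On the flipped arrays alone all 4 passed, with ratios of 0.51, -0.44, 0.32 and 0.41. Rip11 and spin passed on the unflipped arrays with smaller ratios of 0.33 and -0.42, and Vha100-1 passed on the flipped arrays with 0.54. The call of lap was lost in either orientation alone (limma adjusted p = 0.066 and 0.0504). After local normalisation, which subtracts from each clone the median of its neighbours in spot order, lap had 0.14 (0.10) and Lamp1 0.17 (0.064), and cathD passed with -0.21. Without pooling of variance, the calls of Vha100-1 (0.052), AP-1sigma (0.10), lap (0.054), Eps-15 (0.095), cathD (0.055), Lamp1 (0.16), Rip11 (0.060), Snap29 (0.0501) and Rab35 (0.056) were lost.

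**Figure D5:**
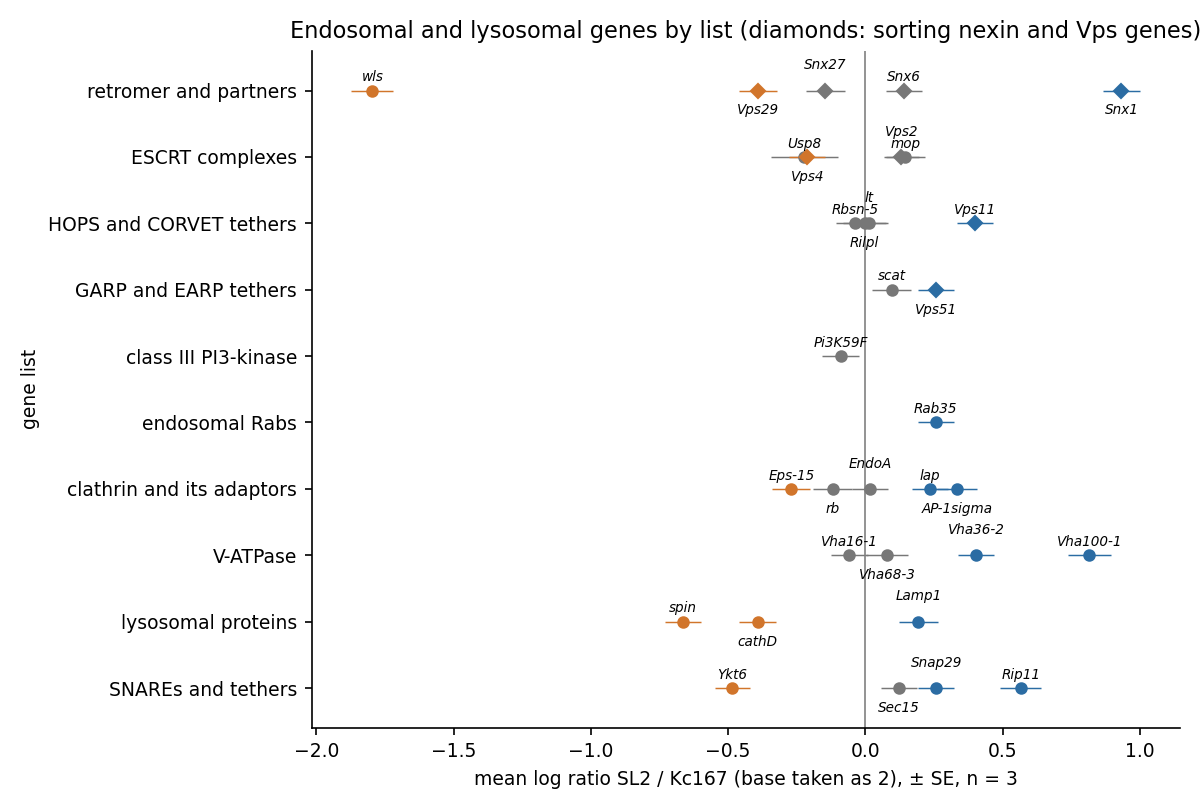
Each point is the mean log ratio of SL2 over Kc167 ± SE (n = 3) of a measured gene, by list; diamonds are the sorting nexin and Vps genes (Snx17 and Snx21 are in no list), blue is higher in SL2, orange is higher in Kc167 and grey did not pass. wls at -1.80 and Snx1 at 0.93 are the extremes, both in the retromer row.

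Of 14 measured markers of cell types, 8 were called, which is 57.1% and near the 59.3% of all named genes. Of 5 measured blood cell markers, Pxn (1.65 ± 0.10) and NimC1 (0.80 ± 0.07) were higher in SL2, Ppn (-1.14 ± 0.06) and Pvr (-0.43 ± 0.07) were higher in Kc167, and 1 did not pass. The ratio of Pxn ran from 0.64 to 2.52 over the arrays and differed between the dye orientations (limma adjusted p = 0.019). Of 4 neuron and glia markers 2 were higher in SL2 and 1 in Kc167, of 2 muscle markers Act88F was higher in SL2, with arrays from -0.20 to 1.09 that also differed between orientations (limma adjusted p = 0.039), and of 3 fat body markers none passed by limma, with 0 at an unadjusted p under 0.05. Ratios do not show whether a marker is present or absent in a line, and the part of such differences in the ratios above was not tested.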

How the data were processed

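RNA of 2 cell lines was compared on 6 cDNA arrays with 2 colours. Per the labels, spots were quantified with QuantArray without background subtraction, and the deposited log ratios, treated here as log2, were derived by the authors from normalised data. Their normalisation, log base and direction are not stated in these sources. Arrays of opposite orientation correlated at 0.64 to 0.83 across features, so no sign was changed.

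The 2 spots of a clone were averaged, then the clones of a gene. Symbols came from the platform annotation (5818 spots listed, 5666 with 1 symbol), all 5666 matched by Entrez identifier to the RefSeq table of Release 6 plus ISO1 MT. Same-numbered arrays were averaged over orientations, and a two-sided test of the 3 averages against 0 was made in R 4.3.3 with limma 3.58.1 (lmFit, eBayes; residual degrees of freedom 2, prior 7.57). P-values were adjusted over 7201 features by the Benjamini-Hochberg method. Intervals are 95% from the same fit. Orientations were compared by limma as 2 groups of 3 arrays. Steps were tested on simulated data. Figures used matplotlib 3.10.9.

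The genes, lists and tests were chosen with earlier results of these data known. Named outside the 10 genes were up to 4 called genes per list with 1 sign on all arrays, all genes of lists with at most 3 measured, the 2 nearest profiles of the highest and lowest gene, and markers. Alternatives covered the dye term, the replicate number as a block, single orientations, centring, scaling, quantile and local normalisation, clones taken singly, features with missing arrays, variance pooling, natural logarithms and left-out replicates. Leaving out single arrays, other than flipped array 1, was chosen after seeing the data.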

Additional observations from a re-analysis of the deposited data

How the results depend on the processing

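Under 21 alternatives, no log2 ratio of the 10 genes changed sign, and Snx1 and Snx21 passed in each. The setting with clones taken singly kept only the clone of Vps2 furthest from 0. It could not show the other clone, whose log2 ratio of -0.12 has the opposite sign to the gene mean. Of 10 genes, 7 differed between the lines; 4 did on the unflipped arrays alone, and 3 to 7 with 1 replicate or array left out. Of the 3 higher in Kc167, 1 passed on the unflipped arrays alone, 1 without pooling of variance, and 0 to 3 with 1 replicate or array left out; the count was 0 without unflipped array 1. With that array left out, replicate 1 rests on 1 dye orientation. The 4 higher in SL2 became 3 to 5. Read as natural logarithms, 2 genes rather than 0 were at least 2-fold apart, and the share of all features under that reading was not computed. Of the 25 other endosomal genes, the 8 higher in SL2 became 1 and the 5 higher in Kc167 became 3 without pooling of variance. On the unflipped arrays alone they were 5 and 4, and with 1 replicate or array left out 5 to 8 and 4 to 6. Over all features, 4332 of 7201 passed, against 3719 on the unflipped arrays alone and 1926 without pooling of variance. With 1 replicate or array left out, 2899 to 4158 passed, the fewest without unflipped array 1. The counts over all features thus also fell where those of the 10 genes did. Of the called features, 47.2% were higher in SL2, 47.4% on the unflipped arrays alone, 48.7% without pooling of variance and 47.5% without unflipped array 1. Same-numbered arrays shared little: their deviations correlated at -0.07, 0.11 and -0.10. With all 6 arrays and the replicate block, 7 of the 10 genes and 4409 features passed, and without the block 7 and 4375. Between orientations, 877 features differed without and 681 with pairing.

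Among the genes named from the other lists, some that had not passed changed sign as follows, and the cause was not tested. List genes that are not named were not followed singly through the alternatives. On the unflipped arrays alone, Usp8 had 0.083, lt -0.049, Rbsn-5 0.19 and Rilpl 0.12. On the flipped arrays alone scat had -0.050. With each array centred, Rilpl had 0.0059. With 1 replicate or array left out, values ran from -0.052 to 0.048 for lt, from -0.17 to 0.097 for Rbsn-5, from -0.080 to 0.082 for Rilpl and from -0.045 to 0.24 for scat. The number of arrays and unknown signal over background limit all values.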
